A study of Homo sapiens with 6 samples.

Results

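The genes described here are 9 chromatin enzymes: the histone H3K4 methyltransferases KMT2A, KMT2B, KMT2C and KMT2D, the H3K27 demethylases KDM6A and KDM6B, and the H3K36 methyltransferases NSD1, NSD2 and SETD2. They were taken by their GENCODE symbols from a table of 58884 genes, without regard to their values, and all 9 passed the filter on low counts that left 16059 genes. Their RNA was compared between DLD1 parental cells, a human colorectal cancer line with a helical domain mutation in one copy of PIK3CA, and DLD1 cells with the p85β changes K477A and R478A knocked in (p85β KR-AA mutant cells), with 3 libraries each. In the study, the question behind this comparison was whether p85β in the nucleus affects gene expression, and the changes lie in its nuclear localization signal. The study describes a pair of independently derived homozygous knock-in clones, but the libraries carry no clone name. The labels give no treatment for either group. Nothing in the labels says that replicates are separate cultures, so p-values measure only the spread between these libraries, which may be technical. For p85β KR-AA replicates 2 and 3 another label field reads R479A and R480A in place of R478A, while title and genotype give R478A in all 3.

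Methyl marks on the tail of histone H3 differ in meaning by position. H3K4 methylation, written by KMT2A and KMT2B mostly at promoters and by KMT2C and KMT2D mostly at enhancers, accompanies active genes, whereas H3K27me3, written by the PRC2 complex with EZH1 or EZH2, accompanies silent ones. KDM6A (also called UTX), a subunit of the KMT2C/KMT2D complexes, and KDM6B (JMJD3) remove H3K27me3. NSD1 and NSD2 write H3K36me2 and SETD2 writes H3K36me3 in transcribed genes, and nucleosomes that carry these H3K36 marks are poor substrates for PRC2.

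Several values of the whole libraries differed between the groups. Libraries held between 20301396 and 26712816 estimated counts. Genes at least as long as the shortest of the 9 (5924 bases) took 3.22% to 4.56% of the counts of parental libraries and 13.6% to 14.1% of those of p85β KR-AA libraries. Median log2 fold changes of tested genes went from -1.12 at up to 1000 bases to 2.59 above 12000 bases. Of 10 colonic epithelial markers, all tested, 2 were up-regulated and 6 down-regulated, and their summed level was 57230 to 79262 CPM (a count over its normalized library size, scaled as in edgeR) in parental and 8812 to 10313 CPM in mutant libraries. Of 10 fibroblast or mesenchymal markers 6 could be tested and 4 were up-regulated, with a sum of 7.65 to 10.4 CPM against 6311 to 7227 CPM, while PDGFRA had no count in any library and COL1A2 and THY1 at most 1. FN1 and VIM, with means of 4992 and 1772 CPM, made up most of the mutant sum. Among 5 neuron markers NEFL was up-regulated, from 0 counts in each parental library to 130 to 134 CPM in mutant libraries. DCX and ELAVL4 stayed at 0 in all 6. The sum was 520 to 607 CPM in parental and 335 to 358 CPM in mutant libraries. TUBB3 made up all of it in parental libraries and 204 to 224 CPM of it in mutant libraries. Of 5 blood markers only CD14 could be tested, it was not called, and the sums were 4.69 to 6.70 CPM and 4.07 to 5.06 CPM. The part of these differences in the results below was not tested beyond the comparisons by length and GC content. PIK3R2, the gene for p85β, had 524, 169 and 313 counts in parental and 503, 476 and 125 in mutant libraries, and the ranges overlapped. A readthrough gene at that locus, ENSG00000268173, held more counts and was down-regulated, with 2902, 2288 and 2807 counts in parental and 1766, 1202 and 1781 counts in mutant libraries (log2 fold change -1.78, adjusted p = 5.39e-07, edgeR), so that the RNA of the edited gene cannot be read from PIK3R2 alone. UTY, a paralogue of KDM6A on the Y chromosome, had 5, 9 and 14 counts in parental and 226, 191 and 126 counts in mutant libraries and was up-regulated. The libraries do not tell the knock-in apart from any other difference between the cultures, so each fold below compares these libraries.

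In the mutant cells 6 of the 9 genes were up-regulated and 0 down-regulated at the study's thresholds, which ask for at least a 3-fold change together with an adjusted p under 0.01 (edgeR quasi-likelihood test with Benjamini-Hochberg adjustment over all tested genes). Of all tested genes 28.6% were up-regulated and 17.6% down-regulated, together 46.2%. At an adjusted p under 0.05 without a fold threshold, 8 of the 9 were higher and 0 lower in mutant cells, against 45.9% and 35.7% of all tested genes. KMT2C, KMT2A, SETD2, NSD1 and KDM6A rose by 9.73-fold to 20.8-fold and KMT2D by 3.26-fold. KMT2B, KDM6B and NSD2 did not reach the thresholds, with folds of 1.23, 1.64 and 1.42. The median log2 fold change was 3.28 over the 9 genes and 0.32 over all tested genes. Libraries of the conditions did not overlap for 8 of the 9 genes, always with the mutant higher, which was the case for 47% of all tested genes (83.4% in either direction). In bulk RNA a changed share of cells and a changed level per cell cannot be told apart.

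**Figure D1:**
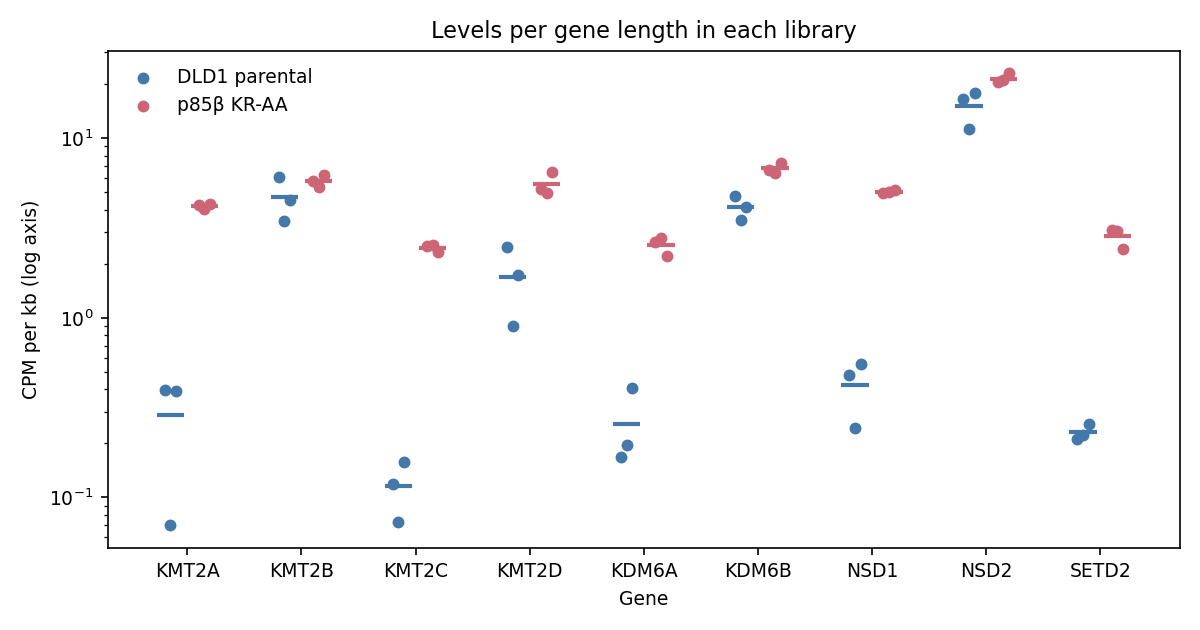
Levels of the 9 genes in CPM per kb of the deposited gene length (log axis) in each library, parental in blue and p85β KR-AA in red, with the mean of 3 libraries as a line. KMT2A, KMT2C, KDM6A, NSD1 and SETD2 lay below 0.6 CPM per kb in parental and above 2.2 CPM per kb in mutant libraries, and only KMT2B overlapped between the conditions.

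KMT2A (ENSG00000118058, chromosome 11 of GRCh37, 118307171 to 118397547, plus strand) is the MLL1 protein, the enzyme that maintains HOX gene expression. It had 6.58, 1.17 and 6.55 CPM in parental replicates 1, 2 and 3 and 70.1, 67.0 and 71.1 CPM in the mutant libraries. The mutant libraries lay close together, and parental replicate 2, with 16 counts against 99 and 106 in the others, lay far below its group. On the log2 scale KMT2A rose by 3.85 with a standard error of 0.38 (adjusted p = 1.04e-06, edgeR), and by 3.38 without parental replicate 2. The value depends on how reads were divided between overlapping genes. A readthrough gene on the same strand, ENSG00000285827 (118272317 to 118353452), begins at the ATP5MG locus upstream and has 5755 of its 6447 exon bases in annotated KMT2A exons, and how reads shared by both were assigned is not stated. The readthrough gene was examined after values were seen. It had 319, 490 and 376 counts in parental and 113, 93.9 and 102 counts in mutant libraries, a log2 fold change of -2.99 (edgeR, adjusted p = 9.49e-08). It was highest in parental replicate 2, where KMT2A was lowest. Both genes together had 31.5 ± 4.79 CPM in parental and 72.8 ± 2.28 CPM in mutant cells (SD, n = 3 each). This sum changed by 1.21 on the log2 scale with a standard error of 0.15 (adjusted p = 5.56e-06, edgeR), below the fold threshold, so that 5 and not 6 of the 9 genes passed. The readthrough gene also shares 277 exon bases with ATP5MG. ATP5MG had 4056, 4407 and 4739 counts in parental and 2431, 1912 and 1654 counts in mutant libraries. It was down-regulated (log2 fold change -2.19, adjusted p = 1.23e-08, edgeR). Whether reads of ATP5MG entered the readthrough counts, and so this sum, was not tested.

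KMT2B (ENSG00000272333, chromosome 19, 36208875 to 36229781, plus strand), the closest relative of KMT2A, did not reach either threshold. Its parental libraries had 51.3, 29.3 and 38.4 CPM and its mutant libraries 49.0, 45.02 and 52.8 CPM, so that the ranges overlapped. The difference was 0.30 on the log2 scale with a standard error of 0.19 (adjusted p = 0.15, edgeR). It was 1.22 under scaling by library totals (adjusted p = 0.0003, edgeR) and 0.52 without parental replicate 1 (adjusted p = 0.012, edgeR), still under the fold threshold. KMT2B shares 80 exon bases with IGFLR1 on the opposite strand, and whether counting used the strand is not stated. With the counts of both summed the log2 fold change was -0.064 (adjusted p = 0.72, edgeR). IGFLR1 alone was down-regulated (log2 fold change -2.90, adjusted p = 3.47e-07, edgeR), and all of its counts enter this sum.

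KMT2C (ENSG00000055609, chromosome 7, 151832007 to 152133729, minus strand), an enhancer H3K4 monomethyltransferase, rose most among the 9 genes. Parental libraries had 1.99, 1.238 and 2.65 CPM, from 30, 17 and 43 counts, and mutant libraries 42.1, 43.1 and 39.1 CPM. The lowest mutant library was 14.7 times the highest parental one. Its log2 fold change was 4.38 with a standard error of 0.24 (adjusted p = 7.61e-09, edgeR) and between 4.12 and 4.63 with any single library left out.

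KMT2D (ENSG00000167548, chromosome 12, 49412758 to 49454577, minus strand), the partner enzyme of KMT2C at enhancers, was already well expressed in parental cells. It had 48.0, 17.4 and 33.5 CPM in parental and 101, 95.6 and 126 CPM in mutant libraries, and the groups did not overlap. An increase of 1.70 on the log2 scale with a standard error of 0.27 (adjusted p = 7.87e-05, edgeR) was close to the fold threshold. It fell below it without parental replicate 2 (1.37) and without p85β KR-AA replicate 3 (1.58). Its exons share 267 bases with DDN-AS1 on the opposite strand, which averaged 35.9 and 50.5 counts in parental and mutant libraries.

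KDM6A (ENSG00000147050, X chromosome, 44732434 to 44972024, plus strand) removes H3K27me3 and sits in the KMT2C/KMT2D complexes. Parental libraries had 0.996, 1.17 and 2.41 CPM, from 15, 16 and 39 counts, and mutant libraries 15.6, 16.4 and 13.1 CPM. All mutant libraries were at least 5.45 times the highest parental one. Its increase was 3.28 on the log2 scale with a standard error of 0.29 (adjusted p = 3.62e-07, edgeR), and 3.27 when counts of its close paralogue UTY, which can share reads with it, were added. UTY itself had a log2 fold change of 3.21, and at most 14 counts in a parental library.

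KDM6B (ENSG00000132510, chromosome 17, 7737535 to 7758114, plus strand), the H3K27 demethylase known for its induction by inflammatory signals, had 31.9, 23.5 and 27.8 CPM in parental and 44.6, 43.1 and 49.1 CPM in mutant libraries. The groups did not overlap, yet the mutant mean was only 1.64 times the parental one. A log2 fold change of 0.71 with a standard error of 0.15 (adjusted p = 0.00086, edgeR) passed the p threshold and not the fold threshold. Under scaling by library totals, which moved the median of all genes by 0.92 on the log2 scale, it was 1.63 and KDM6B passed both.

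NSD1 (ENSG00000165671, chromosome 5, 176558831 to 176727214, plus strand), an H3K36 dimethyltransferase, had 6.18, 3.13 and 7.09 CPM in parental and 63.6, 64.6 and 65.9 CPM in mutant libraries. The mutant libraries differed among themselves by a factor of 1.04, the smallest spread of the 9 genes. NSD1 rose by 3.55 on the log2 scale with a standard error of 0.24 (adjusted p = 3.15e-08, edgeR).

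NSD2 (ENSG00000109685, chromosome 4, 1873120 to 1983934, plus strand), which writes the same mark, had 124, 85.1 and 134 CPM in parental and 154, 159 and 173 CPM in mutant libraries. The lowest mutant library was 1.15 times the highest parental one. With a standard error of 0.16, its log2 fold change of 0.50 (adjusted p = 0.012, edgeR) missed both thresholds. Without parental replicate 2 it was 0.30.

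SETD2 (ENSG00000181555, chromosome 3, 47057918 to 47205603, minus strand), the enzyme that writes most H3K36me3, had 1.73, 1.82 and 2.098 CPM in parental libraries, from 26, 25 and 34 counts, and 24.99, 24.8 and 19.6 CPM in mutant libraries. Its parental libraries were the most even of the 9 genes, with a ratio of 1.21 between highest and lowest. SETD2 rose by 3.61 on the log2 scale with a standard error of 0.21 (adjusted p = 1.19e-08, edgeR), and leaving out parental replicate 2 gave 3.56.

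Parental replicate 2 was the lowest parental library for 7 of the 9 genes. It was also the library with the smallest share of counts in long genes, the 3.22% given above. Without it 5 of the 9 genes, those called above other than KMT2D, were up-regulated and 0 down-regulated, against 27.6% and 17.3% of all genes tested in that fit.

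Compared per kb of gene length, the 9 genes lay further apart in parental than in mutant cells. NSD2 was the highest in both conditions, with 15.1 ± 3.43 CPM per kb in parental and 21.4 ± 1.32 CPM per kb in mutant cells (SD, n = 3 each). KMT2C was the lowest in both, with 0.116 ± 0.042 and 2.46 ± 0.1246 CPM per kb (SD, n = 3 each). The mean of the highest gene was 130 times that of the lowest in parental cells and 8.73 times in mutant cells. In parental cells NSD2 was followed by KMT2B (4.69), KDM6B (4.14), KMT2D (1.70), NSD1 (0.424), KMT2A (0.286), KDM6A (0.257), SETD2 (0.231) and KMT2C, means in CPM per kb. The libraries of KMT2B and KDM6B overlapped, as did those of NSD1 and KMT2A, of KMT2A and KDM6A and of KDM6A and SETD2, although NSD1 was above KMT2A in each of the 3 libraries. The order of the other overlapping pairs is not beyond the spread, while neighbours in this order not named as overlapping were separate in their libraries. In mutant cells the order was NSD2, KDM6B (6.79), KMT2B (5.78), KMT2D (5.54), NSD1 (5.02), KMT2A (4.17), SETD2 (2.84), KDM6A (2.54) and KMT2C, again in CPM per kb. There the libraries of KMT2B, KMT2D and NSD1 overlapped from one to the next, as did those of SETD2, KDM6A and KMT2C. With the readthrough gene added, KMT2A had 1.89 ± 0.29 CPM per kb in parental and 4.38 ± 0.14 CPM per kb in mutant cells (SD, n = 3 each). Its mean then passed that of KMT2D in parental cells, and in mutant cells it stayed between NSD1 and SETD2.

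Fold changes were unequal between close relatives. The ratio of counts per kb within a library, which does not depend on the scaling between libraries, was computed for 4 pairs. KMT2A had 0.0653, 0.0202 and 0.0868 of the level of KMT2B in parental libraries and 0.730, 0.758 and 0.686 in mutant libraries. The ratio of KMT2C to KMT2D was 0.0479, 0.0820 and 0.0912 in parental and 0.478, 0.519 and 0.358 in mutant libraries. KDM6A stood at 0.0353, 0.0561 and 0.0980 of KDM6B in parental and at 0.396, 0.432 and 0.303 in mutant libraries. For NSD1 over NSD2 the values were 0.0292, 0.0216 and 0.0310 in parental and 0.242, 0.239 and 0.223 in mutant libraries. In each pair the parental libraries lay below all mutant ones, and no mutant ratio reached 1. The ratios were higher in mutant cells by 14.9-fold for KMT2A to KMT2B, 6.28-fold for KMT2C to KMT2D, 6.43-fold for KDM6A to KDM6B and 8.70-fold for NSD1 to NSD2, as folds of geometric means. The exact permutation test (two-sided, 3 against 3) gave p = 0.1 for each, also after Benjamini-Hochberg adjustment over the 4, and this is the smallest value it can give. With the readthrough gene added to KMT2A, the first ratio was 0.411 in parental and 0.759 in mutant cells, a change of 1.85-fold (exact permutation p = 0.1). A ratio within a library still depends on how gene length and GC content weigh on each library. With offsets for both in the fit, as defined below, an alternative added after the data were seen, the folds were 2.04 for KMT2A to KMT2B, 1.59 for KMT2C to KMT2D, 1.19 for KDM6A to KDM6B and 3.77 for NSD1 to NSD2. The fold of 2.04 takes KMT2A without the readthrough gene. Their sum was not fitted with offsets, so whether KMT2A still gained on KMT2B with both changes made was not tested.

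**Figure D2:**
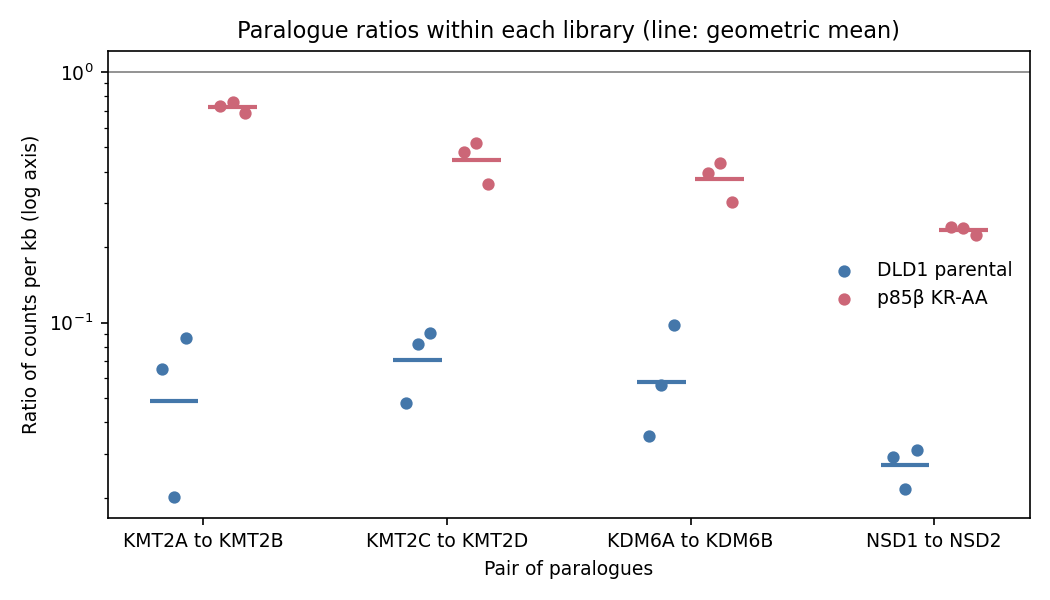
Ratio of counts per kb of gene length between paralogues within each library (log axis), parental in blue and p85β KR-AA in red, with the geometric mean of 3 libraries as a line. All 4 ratios lay below 0.1 in parental libraries and between 0.22 and 0.76 in mutant libraries.

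The 9 genes are long and differ in base composition. Their deposited lengths were 5924 to 19419 bases, against a median of 2796 among tested genes. By the GC content of the transcript closest to the deposited length, 5 had at most 50% GC, between 42.2% (KDM6A) and 47.5% (NSD1), and 4 had more, between 52.2% (NSD2) and 63.5% (KMT2B). The former had log2 fold changes of 3.28 to 4.38, and all 5 were up-regulated. The latter had log2 fold changes of 0.30 to 1.70, and only KMT2D was up-regulated. The cut at 50% was chosen after the data were examined. A cut above 52.2% would put NSD2, at 0.50, with the former. In each paralogue pair the member with the larger change was the one with the lower GC content. The same division held for other genes in this length range. Of 1526 such genes with at most 50% GC, 72.5% were up-regulated and the median fold change on the log2 scale was 2.55. Of 664 with more than 50% GC, 33.6% were up-regulated and the median was 0.88. Among the 9 genes, the 5 with at most 50% GC also had the lower parental means, 0.116 to 0.424 CPM per kb against 1.70 to 15.1 CPM per kb. With the readthrough gene added KMT2A was at 1.89 CPM per kb. The parts of GC content and parental level in the folds of the 9 genes were not tested apart.

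Against genes of similar length (the shorter of both at least 0.8 times as long as the longer), 5 of the 9 genes had a log2 fold change above the median and 4 below. KMT2C exceeded the median of its 141 such genes (2.38) by 1.998, and 15 of them were higher. KDM6A exceeded the median of 2379 genes (1.63) by 1.65, SETD2 that of 1276 genes (2.04) by 1.58, KMT2A that of 148 genes (2.38) by 1.46, and NSD1 that of 377 genes (2.68) by 0.87. With the readthrough gene added, KMT2A lay below its median by a difference of -1.17, which leaves 4 of the 9 above. The differences were -1.84 for KMT2B, -1.43 for NSD2, -1.11 for KDM6B and -0.68 for KMT2D. When the genes were matched within 5 percentage points of GC as well, a comparison added after the data were seen, 8 of the 9 lay above the median and only NSD2 below it (-1.01). KMT2A with the readthrough gene added was at -1.46 there, which leaves 7 above. The differences were then 0.44 for KMT2B among 102 genes and 0.95 for KDM6B among 251 genes. KMT2D had only 8 genes to compare with and differed by 1.67. NSD1 differed by 0.55. KMT2C, KMT2D, KDM6A, KDM6B and SETD2 lay above the upper quartile of their matched genes and the other 4 within the quartiles.

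**Figure D3:**
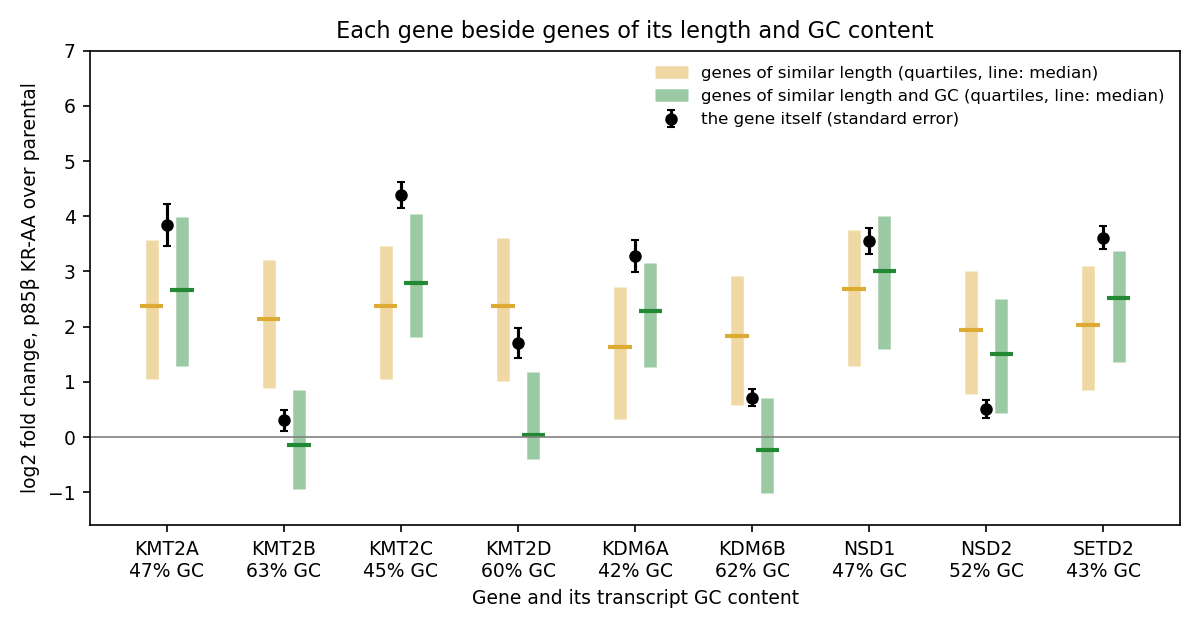
log2 fold change of each gene (black, bars for the standard error) beside the median and quartiles of tested genes of similar length (yellow) and of those also within 5 percentage points of its GC content (green). KMT2B and KDM6B lay below the first median and above the second, and NSD2 lay below both.

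Offsets in the fit that remove any relation of expression with gene length in each library, whatever its source, left 3 of the 9 genes up-regulated, KMT2C (log2 fold change 1.76), KDM6A (1.75) and SETD2 (1.61), and 1 down-regulated, KMT2B (-1.73). Of all genes 18.7% were called in each direction in that fit. With offsets for length and GC content 0 of the 9 were called in either direction, where 14.3% of all genes passed upward and 10.5% downward. The log2 fold changes in that fit were 1.55 for KMT2C, 1.27 for KMT2A, 1.17 for NSD1, 1.07 for SETD2, 1.05 for KDM6A, 0.88 for KMT2D, 0.80 for KDM6B, 0.24 for KMT2B and -0.74 for NSD2. Their median was 1.05, against -0.051 for all genes. An adjusted p under 0.01 together with a positive value was found for 7 of the 9 genes in that fit (edgeR), and for 29.3% of all genes. KMT2A is counted among the 7 without the readthrough gene, and their sum was not fitted with offsets.

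**Figure D4:**
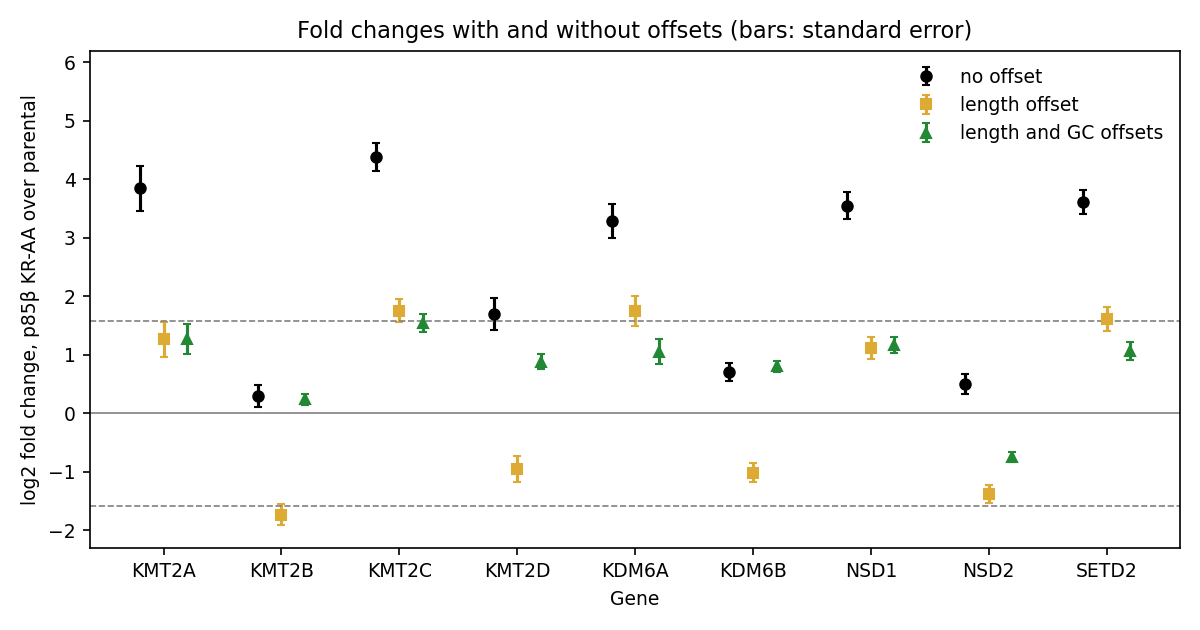
log2 fold change of each gene with its standard error in the fit without offsets (black), with an offset for gene length (yellow) and with offsets for length and GC content (green), with dashed lines at a fold of 3 in either direction. KMT2D, KDM6B, KMT2B and NSD2 changed sign with the length offset alone, and with both offsets only NSD2 stayed below 0. KMT2A is shown without the readthrough gene.

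The pairs KMT2A and KMT2B, KDM6A and KDM6B, and NSD1 and NSD2 each had 1 member past the thresholds and 1 short of them. Sequences before the starts of the first 2 of these pairs are shown to set their members side by side, and NSD1, with 5 annotated windows, and NSD2 are left to the counts below. RefSeq promoter windows of GRCh38.p14 were found for all 9 genes, 14 in total as some genes have several starts. The 250 bases before the start are printed 5′ to 3′ on the strand of the gene, with each GC box (GGGCGG on either strand) in capitals. They lie at chr11:118436242-118436491 for KMT2A, chr19:35717753-35718002 for KMT2B, chrX:44872938-44873187 for KDM6A and chr17:7833967-7834216 for the upstream start of KDM6B, all on the plus strand.
KMT2A: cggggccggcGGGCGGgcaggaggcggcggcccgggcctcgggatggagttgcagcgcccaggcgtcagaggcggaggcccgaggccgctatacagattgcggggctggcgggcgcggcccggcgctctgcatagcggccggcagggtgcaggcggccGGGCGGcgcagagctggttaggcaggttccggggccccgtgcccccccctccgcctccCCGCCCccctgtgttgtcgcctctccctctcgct
KMT2B: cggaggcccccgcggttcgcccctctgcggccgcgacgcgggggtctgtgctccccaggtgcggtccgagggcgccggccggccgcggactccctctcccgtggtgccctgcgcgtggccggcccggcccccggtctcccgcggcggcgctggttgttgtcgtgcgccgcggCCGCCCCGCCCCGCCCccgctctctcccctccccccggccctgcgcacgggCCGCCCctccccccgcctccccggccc
KDM6A: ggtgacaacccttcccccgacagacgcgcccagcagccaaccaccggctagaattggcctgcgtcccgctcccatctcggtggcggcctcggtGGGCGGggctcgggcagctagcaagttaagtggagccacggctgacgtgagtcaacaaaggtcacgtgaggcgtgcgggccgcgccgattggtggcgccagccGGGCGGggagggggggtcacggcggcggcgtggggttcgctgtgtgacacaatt
KDM6B: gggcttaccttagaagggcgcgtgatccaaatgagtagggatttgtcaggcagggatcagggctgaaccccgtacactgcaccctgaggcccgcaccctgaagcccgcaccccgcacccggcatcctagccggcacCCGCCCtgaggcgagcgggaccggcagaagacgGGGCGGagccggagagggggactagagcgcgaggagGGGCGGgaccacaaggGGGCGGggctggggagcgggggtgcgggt
These windows hold 78.4% GC and 31 CpG for KMT2A, 84.4% and 40 for KMT2B, 69.2% and 27 for KDM6A, and 70.4% and 21 for KDM6B. The median of all 35116 windows was 58% GC and 11 CpG. At these starts both members of each pair lay above the median in GC, also where the transcripts differed in GC content, while the other window of KDM6B had 50.4% GC and 1 CpG. A GC box was found in 13 of the 14 windows of the 9 genes and in 42.6% of all windows, where KMT2A had 3, KMT2B 4, KDM6A 2 and KDM6B 4, counted with overlaps. CCAAT on either strand was found in 4 of the 14 and in 32.0% of all windows, the former in KDM6A, NSD1 and NSD2. The NSD1 windows that begin at 177133350 and 177133523 overlap and share their CCAAT match and some GC boxes. The 14 windows are therefore not independent. TATAAA on either strand was found in 0 of the 14 and in 10.7% of all windows, and the ETS core CCGGAA in 2 of the 14, those of KMT2A and SETD2, and in 14.5% of all windows. These matches describe letters only.

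A total of 35 partner, related and opposing genes in 8 lists could all be tested. The thresholds called 13 of them up-regulated and 2 down-regulated, against 28.6% and 17.6% of all tested genes, and the median of their log2 fold changes was 0.73. In the shared core of the H3K4 methyltransferase complexes, 1 of 4 genes was up-regulated and 0 down-regulated. RBBP5, which contacts the catalytic domain, had 5.37 ± 1.67 CPM in parental and 21.6 ± 1.16 CPM in mutant cells (SD, n = 3 each) and rose by 2.003 on the log2 scale. The scaffold WDR5 (-1.39) and DPY30 (-0.74) did not pass the fold threshold. With both offsets RBBP5 was at 0.28, WDR5 at -1.06 and DPY30 at -0.23.

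Of 4 partners of KMT2A and KMT2B, 1 was up-regulated, HCFC2, with a log2 fold change of 3.81 from only 3, 5 and 3 parental counts. The log2 fold change was -1.40 for MEN1 (menin) and 0.64 for PSIP1 (LEDGF), which tether KMT2A to chromatin. With both offsets HCFC2 was at 1.60, MEN1 at -0.68 and PSIP1 at -0.96. Of 3 partners of KMT2C and KMT2D, the coactivator NCOA6 (log2 fold change 2.26) and PAXIP1 (1.90) were up-regulated and PAGR1 (-1.99) was down-regulated. PAGR1 and PAXIP1, which bind each other in this complex, were called in opposite directions in the fit without offsets. With offsets for length and GC content PAXIP1 was at 0.31 (adjusted p = 0.11, edgeR), NCOA6 at 0.84 and PAGR1 at -1.86. PAGR1 fell from 59.7 ± 7.91 to 15.01 ± 1.77 CPM (SD, n = 3 each). Of 6 genes of the SETD1 complexes, which write most H3K4me3, BOD1L1 (1.60) was up-regulated just past the fold threshold and the CpG-binding subunit CXXC1 (-2.29) was down-regulated. BOD1, at 0.96, did not pass.

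Among 4 other H3K36 methyltransferases, ASH1L and NSD3 were up-regulated. ASH1L had 42, 14 and 23.3 counts in parental and 1467, 1171 and 947 counts in mutant libraries, an increase of 4.45 on the log2 scale with a standard error of 0.28 (adjusted p = 1.97e-08, edgeR). NSD3 had a log2 fold change of 2.80 and SMYD2 of 0.17. With both offsets NSD3 was at -0.025 and ASH1L at 1.71.

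In each list of opposing enzymes 2 genes were up-regulated and 0 down-regulated, against 28.6% and 17.6% of all tested genes. Of 5 H3K4 demethylases KDM5B (log2 fold change 3.60) and KDM5A (1.91) were up-regulated, and KDM1B was at 1.38. With both offsets KDM5B was at 1.67, KDM5A at -0.87 and KDM1B at 0.75. The median of this list was 1.38, and -0.53 with both offsets. Of 5 H3K36 demethylases KDM2A (1.80) and KDM4C (1.69) were up-regulated, and KDM2B was at 0.78, the median of its list, which was 0.11 with both offsets. In that fit KDM2A was at 0.73, KDM4C at 0.11 and KDM2B at 0.32. In the PRC2 core EZH1 (2.65) and SUZ12 (2.15) were up-regulated, and EZH2 was at 0.73 (adjusted p = 0.0043, edgeR), under the fold threshold. EED went the other way, at -0.67 (adjusted p = 0.0043, edgeR), also under it. With both offsets EZH1 was at 1.73, SUZ12 at 0.16, EZH2 at -0.29 (adjusted p = 0.054, edgeR) and EED at -1.54. The median of this list was 1.44, and -0.068 with both offsets. With offsets for length and GC content 4 of the 35 genes were up-regulated and 1 down-regulated, and their median was -0.14.

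**Figure D5:**
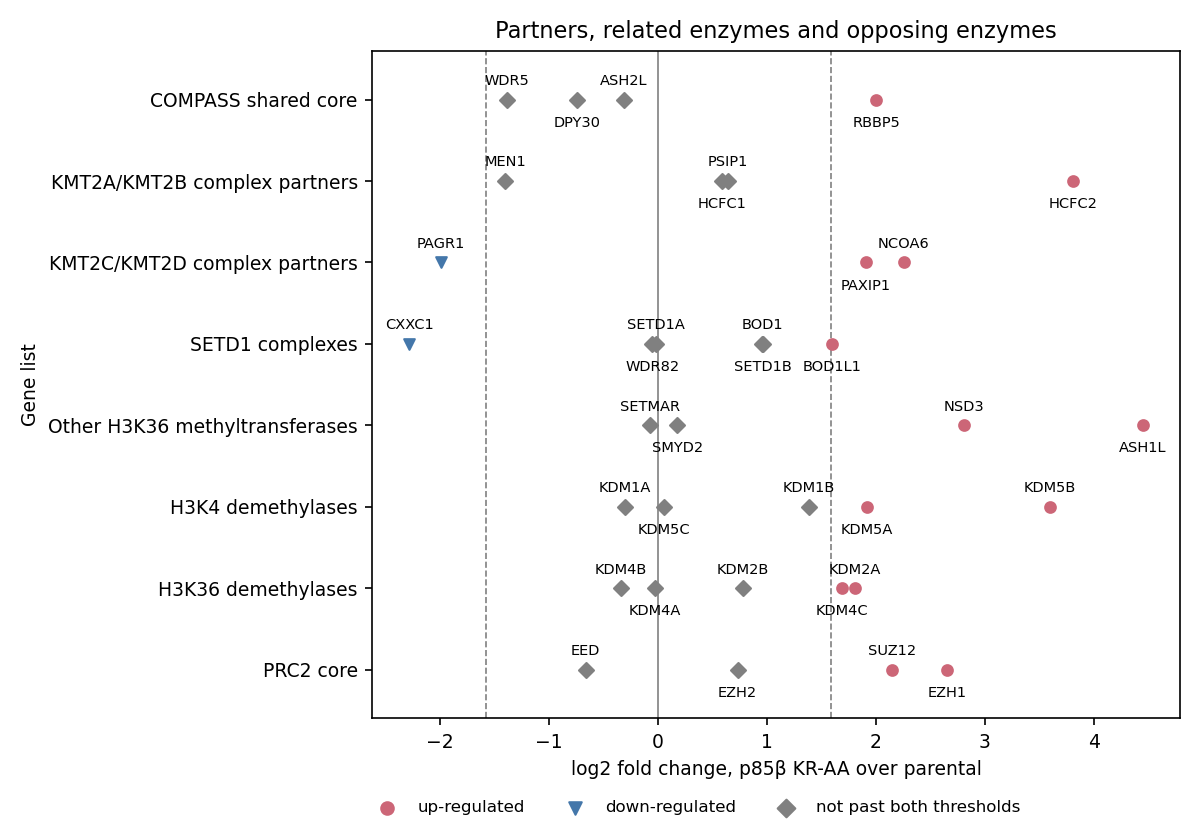
log2 fold change of the 35 partner, related and opposing genes by list, with up-regulated genes as red circles, down-regulated genes as blue triangles, the rest as grey diamonds, and dashed lines at a fold of 3. CXXC1 and PAGR1 were the only genes past the left line, and ASH1L, HCFC2 and KDM5B lay furthest right.

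Outside these genes, the tested gene with the most similar profile over the 6 libraries was found for each of the 9, by the Euclidean distance between log2 CPM values centred on the mean of the gene. These were WNK1 for KMT2A (distance 0.34), BCL9L for KMT2B (0.091), TEAD1 for KMT2C (0.20), KLF13 for KMT2D (0.23), IL18R1 for KDM6A (0.23), ENO2 for KDM6B (0.079), ATP2B4 for NSD1 (0.10), MED15 for NSD2 (0.10) and ARFGEF2 for SETD2 (0.081). The deposited lengths of TEAD1 and IL18R1, 1281 and 1749 bases, are much shorter than those of the genes they matched. The basis of these lengths is not stated. KMT2A, in which parental replicate 2 stood apart, had the least close match.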

How the data were processed

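Per the labels and the paper's methods, total RNA was extracted with Trizol, libraries were made with an Illumina TruSeq RNA kit, and reads from both ends were trimmed (SeqPrep, Sickle). The submitters' processing notes list HISAT2 2.1.0, RSEM 1.3.1, DESeq2 1.24.0 and the build hg18, without their roles. The annotation and the use of strand in counting are not given in the sources used here. For each library the authors deposited estimated counts, not normalized, by Ensembl gene, and a gene length, the basis of which is not stated. All sample columns were mapped to libraries by name. Symbols and GRCh37 positions came from GENCODE release 44 lifted to that build, and GC content from its transcripts, with 15902 of 16059 tested genes matched.

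The design assumed whole counts, so the estimated counts were rounded. edgeR 4.0.16 in R 4.3.3 was used with filterByExpr (minimum count 10, minimum total 15), TMM and the quasi-likelihood F test. Standard errors were derived from the fold change and the F statistic. CPM were scaled by TMM library sizes, and 1 count was worth 0.0273 to 0.0728 CPM. This precision covers counting error only. Replicates differed by 4.29 to 39.1 times sampling noise (chi-square per degree of freedom), so that none was a copy. Offsets were robust splines with 5 degrees of freedom (MASS) fitted per library on length, or on length and GC content. Alternatives were DESeq2 1.42.0, library totals, other filters and thresholds, the replicate number as a block, and each library left out in turn. The code was tested on simulated data. The 9 genes, the lists, the naming rule (all 9 genes, up to 3 genes per list with the largest absolute log2 fold change, and the nearest profile to each of the 9) and the tests were chosen with earlier results of these data known. Sums with overlapping or paralogous genes, the match on GC content and the paralogue ratios with offsets were chosen after the data were examined, as were the genes named for their overlap, and the marker genes were named to describe their lists. ChIP-seq of the study was not analysed here.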

Additional observations from a re-analysis of the deposited data

How the results depend on the processing

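With DESeq2, 6 of the 9 genes were up-regulated and 0 down-regulated, against 26.2% and 19.3% of all genes (4202 and 3094). With each library left out in turn, 5 to 6 of the 9 were up-regulated and 0 down-regulated, 11 to 13 of the list genes were up-regulated, and 4404 to 4783 of all genes were up-regulated and 2774 to 2992 down-regulated. Library totals gave 7052 up-regulated and 973 down-regulated genes and 0 down-regulated list genes. At least 10 counts in every library, which tests fewer genes, gave 2898 up-regulated genes. An adjusted p under 0.05 without a fold threshold gave 7373 and 5738 genes, with 20 and 6 in the lists, and a fold of 2 at that p gave 4289 down-regulated genes, 4 of them in the lists. The length offset gave 3 up-regulated and 1 down-regulated of the 9 genes, 3 and 5 of the list genes and 2997 up-regulated genes, and reversed KMT2B (-1.73), KMT2D (-0.95), KDM6B (-1.02) and NSD2 (-1.38). Both offsets gave 0 of the 9 genes, 4 and 1 of the list genes and 2272 and 1674 of all genes, and reversed NSD2 (-0.74). The sum with IGFLR1 reversed KMT2B (-0.064), and that with the readthrough gene changed the log2 ratio of KMT2A to KMT2B from 3.90 to 0.88 and reversed the difference of KMT2A from genes of similar length (-1.17). Both offsets changed the log2 ratios of the 4 pairs to 1.03 for KMT2A to KMT2B, 0.67 for KMT2C to KMT2D, 0.25 for KDM6A to KDM6B and 1.92 for NSD1 to NSD2. The value of 1.03 takes KMT2A without the readthrough gene. Matching on GC content reversed the difference from similar genes for KMT2B (0.44), KMT2D (1.67) and KDM6B (0.95). The cause of these changes was not tested.

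The replicate number as a block gave 6 of the 9 genes up-regulated, 4626 genes up-regulated and 2827 down-regulated in all, and changed no call of the 9. Same-numbered libraries showed no shared deviation (correlations of -0.14 to 0.12 across genes), and 2 of the 6 libraries correlated best with their own number, so the numbers are not taken as pairs. Depth limited the values of KMT2C, KDM6A and SETD2 in parental libraries, which rest on 15 to 43 counts.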
